A study of Mus musculus with 8 samples.

Results

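Kidneys of cKOt mice taken at ZT16 were compared with kidneys of cKOt mice taken at ZT4, to see which differences between day and night were left after the clock of the renal tubule had been lost. The comparison used 4 of the 8 single-nucleus libraries of the study, 2 for each time point and each from 1 male mouse, and 40067 of 81319 nuclei. UMIs (unique molecular identifiers, each standing for 1 captured transcript) were summed per gene over all nuclei that passed quality control in a library, so that the mouse and not the nucleus was the replicate. Nuclei in which 3 or more of 10 brown adipocyte genes were seen had been dropped. Both cKOt groups carried Bmal1 lox/lox alleles together with the Pax8-rtTA and LC-1 transgenes, by which doxycycline turns on Cre recombinase in renal tubules. Vessels, stroma and immune cells were not targeted by this driver. Ctrl littermates carried Bmal1 lox/lox alone and received the same doxycycline and sucrose in their drinking water. All animals were of C57BL/6J background, lived under equal spans of light and dark, and were 14 weeks old at sacrifice. ZT counts hours from lights on, so ZT4 fell in the light phase, when mice rest, and ZT16 in the dark phase, when they are active. The light schedule of the cages was shifted so that every group was killed at the same hour of the day.

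The mammalian clock is a loop of transcription. BMAL1 (encoded by Arntl) pairs with CLOCK or NPAS2 and activates genes that carry E-boxes, among them the period and cryptochrome genes, whose proteins repress BMAL1, and the genes of the REV-ERB receptors NR1D1 and NR1D2. REV-ERB and ROR receptors compete at elements in Arntl, Npas2, Cry1 and Nfil3, and the PAR bZIP factors DBP, TEF and HLF and their antagonist NFIL3 carry the rhythm to output genes. A cell without BMAL1 can still meet day and night through feeding, body temperature, hormones and the nerves. The endoplasmic reticulum (ER) chaperones, which fold secreted and membrane proteins, are a known group that follows the load of protein synthesis.

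The 8 libraries held between 36545383 and 54468468 UMIs, and any pair of libraries shared 18 to 42 barcodes. Clustering put 96.04% of nuclei into 9 classes by their markers. Over the 4 cKOt libraries proximal tubule made up 29.7 to 36.5% of nuclei, thick ascending limb 10.2 to 13.7%, distal tubule with collecting duct 10.9 to 14.05%, endothelium 14.5 to 18.2% and stromal and mural cells 10.2 to 11.7%. Thin limb made up 3.75 to 7.30%. Each defining marker list of a kidney cell type was seen with no marker at 0. One library stood apart. In cKOt ZT4 replicate 2, 79.9% of proximal tubule nuclei fell into 2 clusters that held 0.111 to 1.72% of these nuclei in the other 7 libraries, while 83.1 to 87.0% of those of the other 3 cKOt libraries lay in 3 clusters that held 3.92% of its own. Ctrl replicates differed as well. Ctrl ZT4 replicate 2 had 957 of its 2788 proximal tubule nuclei in 1 cluster that held 0 to 26 of each other library. The 3 clusters named before held 18.4% of these nuclei in Ctrl ZT16 replicate 2 and 2.95% in replicate 1. The log2 difference between replicates over genes had an SD of 0.453 in cKOt ZT4 proximal tubule against 0.268 at ZT16. In Ctrl it was 0.333 and 0.368.

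The targeted gene was read first. Arntl stood at 31.5 and 26.95 CPM (counts per 1000000 UMIs after TMM scaling) in Ctrl mice killed at ZT4, 126 and 134 CPM in those of ZT16, 246 and 169 CPM for cKOt at ZT4 and 245 and 221 CPM for cKOt at ZT16. The cKOt libraries were thus the higher ones at both time points. UMIs of Arntl are not confined to the deleted part of the gene, so this count checks neither the deletion nor the labels. Between time points the cKOt groups overlapped (log2 fold change, ZT16 over ZT4, 0.17, edgeR quasi-likelihood test, adjusted p = 0.878), whereas in Ctrl the level was higher at ZT16 by 2.15 (edgeR, adjusted p = 0.0031).

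Of 20930 genes tested over all nuclei, 2 differed between ZT16 and ZT4 in cKOt, both lower at ZT16. They were the REV-ERB receptor gene Nr1d1 (ENSMUSG00000020889) and the lncRNA Gm43821 (ENSMUSG00000105219). This was 0.00956% of genes by edgeR's quasi-likelihood test with Benjamini-Hochberg adjustment at 0.05. At an unadjusted p under 0.05 there were 1787 genes, and DESeq2 called 183 (0.874%), that is 89 higher and 94 lower (0.425% and 0.449%). All of the 183 had the same direction in edgeR, an unadjusted edgeR p under 0.05 and groups that did not overlap. With only 2 libraries a side, groups failed to overlap in 17.7% of genes upwards and 18.7% downwards. In Ctrl the same fit called 44 of 21132 genes, 13 higher and 31 lower at ZT16 (0.208%, of which 0.0615% and 0.147%), and DESeq2 306 (1.45%, of which 0.582% higher and 0.866% lower). Among lncRNAs edgeR called 1 of 4612 in cKOt, with 488 at an unadjusted p under 0.05, and among protein-coding genes 1 of 16063, with 1266. In sums over all nuclei, fewer nuclei of a type and less RNA per nucleus cannot be told apart.

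Nr1d1, the repressor that links both arms of the clock, measured 5.80 and 8.87 CPM in the cKOt ZT4 libraries and 0.526 and 0.943 CPM at ZT16. It fell by 3.33 ± 0.33 on the log2 scale (SE, n = 2 libraries a group, edgeR adjusted p = 0.0357), and was 10.05-fold higher at ZT4. In Ctrl it went from 19.7 and 22.9 CPM to 0.988 and 1.45 CPM, a log2 change of -4.14. The change in cKOt therefore kept its direction from a lower starting level, and the test of the difference between genotypes gave 0.81 (edgeR, unadjusted p = 0.108). Nr1d1 lies over part of Thra on the other strand. No source used here says whether counting used strand, so it is not known whether reads of both were told apart where they overlap. Its call was lost without cKOt ZT4 replicate 2, cKOt ZT16 replicate 1 or 2, or either Ctrl ZT4 library, with log2 changes of -2.99, -2.96 and -3.79 for the 3 cKOt libraries. Gm43821, of unknown function, measured 9.12 and 9.37 CPM at ZT4 against 2.12 and 2.50 CPM at ZT16 and fell by 2.00 ± 0.20 (edgeR adjusted p = 0.0357), against a log2 change of -1.60 in Ctrl. It overlaps another lncRNA gene, Gm65414, on the other strand, and was no longer called without any 1 of the cKOt or Ctrl ZT4 libraries.

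**Figure D1:**
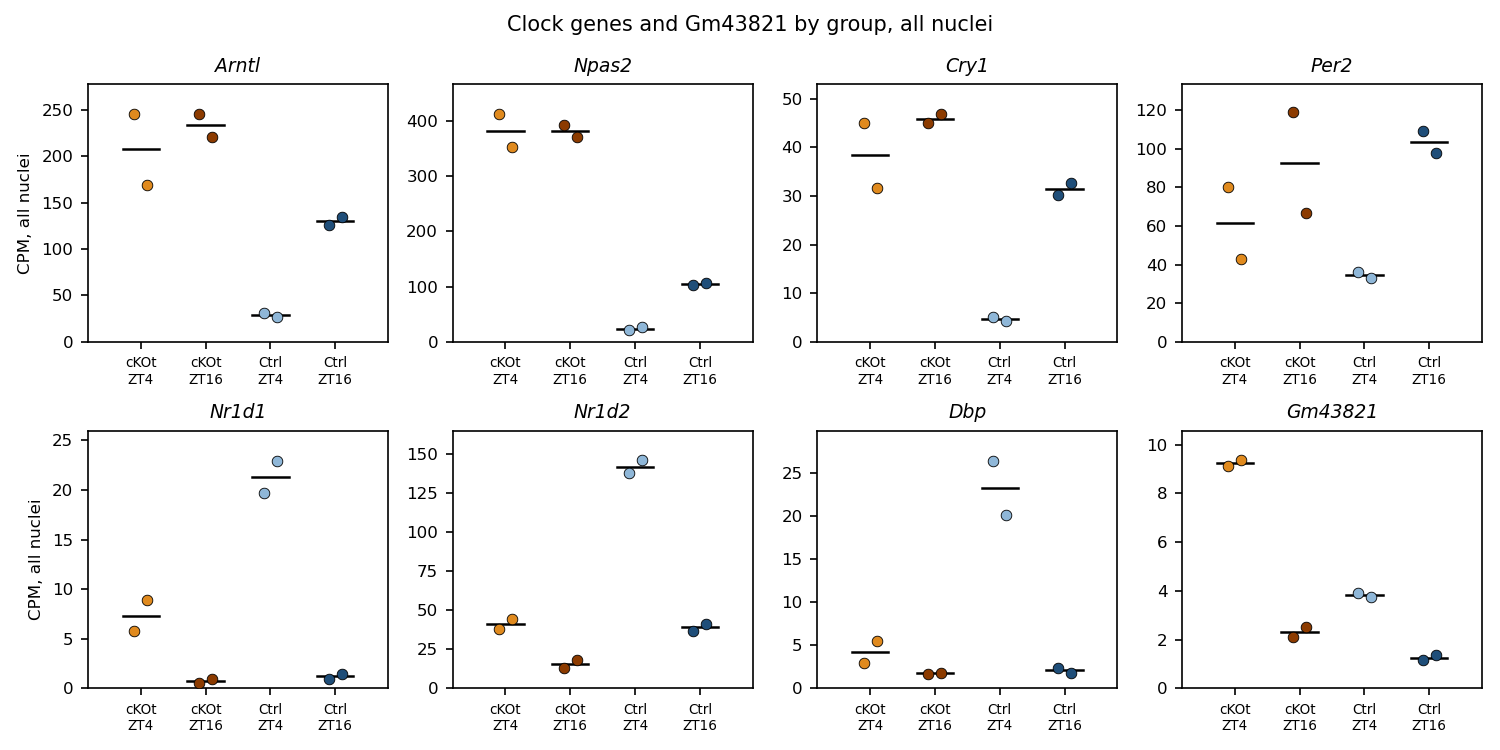
CPM over all nuclei (vertical axes, linear) of 8 genes in the 8 libraries, by genotype and time point, with a line at each group mean of 2 mice. The 2 cKOt groups lie apart for Nr1d1, Nr1d2, Dbp and Gm43821, all lower at ZT16, whereas those of Arntl, Npas2, Cry1 and Per2 overlap.

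The activators showed no time difference in cKOt. Clock measured 192 and 165 CPM at ZT4 against 192 and 191 CPM at ZT16. Npas2, the partner that can stand in for CLOCK, measured 412 and 352 CPM at ZT4 against 392 and 371 CPM at ZT16, a log2 change of -0.00, whereas in Ctrl it rose from 20.7 and 26.9 CPM to 102 and 106 CPM (log2 change 2.12, edgeR adjusted p = 0.0014). None of the 3 activators had an unadjusted p under 0.05 in cKOt. Their median log2 change was 0.10 in cKOt and 2.12 in Ctrl, beside a median of -0.01 over all genes tested in cKOt.

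Of the repressors, Cry1 is shown with its promoter, because its E-box is a textbook binding site of the activator pair and its time effect differed between the genotypes. The 250 bases before its start read as follows on the strand of the gene (chr10:85185055-85185304, minus strand, GRCm38.p6, RefSeq table), with the E-box CACGTG, 60 bases before the start, in capitals.
Cry1: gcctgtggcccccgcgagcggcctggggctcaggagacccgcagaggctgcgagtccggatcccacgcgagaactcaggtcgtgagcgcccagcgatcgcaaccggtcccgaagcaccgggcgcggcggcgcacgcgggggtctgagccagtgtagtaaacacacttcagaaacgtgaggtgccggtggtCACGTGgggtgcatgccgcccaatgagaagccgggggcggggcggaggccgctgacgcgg
An E-box of these letters, searched on both strands from 250 bases before to 50 after the start, is held by 7.15% of the 32851 promoters in that table. It was found in Cry1 and Per1 of the 4 period and cryptochrome genes in the table, and in neither Nr1d1 nor Nr1d2. Over all nuclei Cry1 measured 45.04 and 31.7 CPM at cKOt ZT4 against 44.9 and 46.9 CPM at ZT16, groups that overlapped, while in Ctrl it went from 5.197 and 4.25 CPM to 30.1 and 32.6 CPM. Per2 measured 80.3 and 43.0 CPM at ZT4 against 119 and 66.5 CPM at ZT16 in cKOt (log2 change 0.59, edgeR adjusted p = 0.67), and the spread within each time point was as wide as the difference. Per1 (20.1 and 6.96, then 13.7 and 8.45 CPM), Per3 (16.5 and 18.9, then 19.1 and 17.5 CPM) and Cry2 (45.3 and 57.8, then 47.1 and 42.6 CPM) overlapped between time points as well. No period or cryptochrome gene reached an unadjusted p under 0.05.

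Among the nuclear receptors, Nr1d2, which shares the targets of Nr1d1, measured 37.8 and 44.3 CPM at cKOt ZT4 against 12.99 and 17.8 CPM at ZT16. Its groups lay apart by 1.41 ± 0.17 on the log2 scale without passing the test over all nuclei (edgeR adjusted p = 0.0706), and DESeq2 called it. The same gene measured 137 and 146, then 36.9 and 41.3 CPM in Ctrl. Of the ROR receptors, which activate at the same elements, Rora had a log2 change of -0.19, and Rorb, at 6.52 and 5.03 CPM and then 11.2 and 8.47 CPM, did not pass the test (edgeR adjusted p = 0.42).

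Of the 4 output factors, Dbp and Hlf were lower at ZT16 in cKOt without overlap (18.7% over all genes). Dbp, the strongest cycling PAR bZIP gene of many tissues, measured 2.98 and 5.53 CPM at cKOt ZT4 against 1.69 and 1.80 CPM at ZT16. The change was below the limit in DESeq2 only (log2 change -1.29 ± 0.30, edgeR adjusted p = 0.242, DESeq2 adjusted p = 0.0045). Tef (107 and 144, then 104 and 115 CPM) and Hlf (141 and 154, then 137 and 121 CPM) had log2 changes of -0.20 and -0.19. Nfil3 ranged from 10.4 to 23.3 CPM over the 4 libraries with no order by time. Of the 11 accessory regulators none had an unadjusted p under 0.05 in edgeR and DESeq2 called 0, with log2 changes from -0.52 (Bhlhe41, a repressor at E-boxes) to 0.36 (Ciart, a repressor of the activator pair, at 0.915 and 1.11, then 1.44 and 1.16 CPM).

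The test of the difference between the genotypes' time effects called 3 of 21544 genes (0.0139%), all with a lower change in cKOt. They were Npas2 (-2.13 ± 0.22, edgeR adjusted p = 0.0394), Cry1 (-2.48 ± 0.26) and Rhobtb1 (-1.97 ± 0.21), which measured 1132 and 1042 CPM at cKOt ZT4 against 1252 and 1021 CPM at ZT16. In each, the Ctrl libraries rose at ZT16 and the cKOt libraries stayed near or above the Ctrl ZT16 level at both times. At an unadjusted p under 0.05 there were 900 genes, and DESeq2 called 39 (0.181%). With a replicate block, or with proximal tubule nuclei left out, none of the 3 was called by edgeR. All 3 calls were lost when any 1 Ctrl library, cKOt ZT4 replicate 1 or either cKOt ZT16 library was left out. Without cKOt ZT4 replicate 2 the call of Cry1 held (edgeR adjusted p = 0.0171), and those of Npas2 and Rhobtb1 did not. Arntl had a difference of -1.98 that did not pass (edgeR adjusted p = 0.0757).

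The 44 genes called between time points in Ctrl were then read in cKOt. In 39 the cKOt change had the same direction, in 30 it had an unadjusted p under 0.05, and 2 were called in both. The share of all genes with the same direction in both genotypes was not counted, here or beside the called genes below. Their median absolute log2 change was 1.42 in Ctrl, the contrast that chose them, and 0.66 in cKOt. The genes named next were chosen after their values were seen. Some had little change in cKOt, such as Lingo4 (2.36 in Ctrl, -0.05 in cKOt), the dopa decarboxylase gene Ddc (0.95 and -0.01) and Cubn, which encodes the endocytic receptor cubilin (-1.35 and -0.11). Others were among those with the smallest unadjusted p in cKOt. The receptor tyrosine kinase gene Alk measured 62.5 and 61.8 CPM at cKOt ZT4 against 22.7 and 27.7 CPM at ZT16, a log2 change of -1.30 in cKOt and -2.68 in Ctrl. Acmsd, a branch-point enzyme of tryptophan breakdown, measured 68.9 and 52.3 CPM and then 157 and 129 CPM, with a change of 1.24 in cKOt and 1.32 in Ctrl. The lncRNA Gm13387, which overlaps Nrarp on the other strand, changed by -1.38 in cKOt and -1.36 in Ctrl. Alk, Acmsd and Gm13387 did not pass in cKOt by edgeR (adjusted p = 0.0724 for Alk and Acmsd, 0.14 for Gm13387), although both cKOt groups lay apart in each.

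Since Cre acts in tubules, the nuclei were divided into 52809 tubular and 25290 other named nuclei (endothelial, stromal and mural, immune, podocyte) and summed again. In other nuclei, 7 of 17140 genes were called in cKOt, 3 higher and 4 lower at ZT16 (0.0408%). In tubular nuclei edgeR called 0 of 19614, with 1493 at an unadjusted p under 0.05 and 113 called by DESeq2. Nr1d1 went from 22.8 and 30.4 CPM to 1.09 and 1.40 CPM in other nuclei (log2 change -4.41 ± 0.34, edgeR adjusted p = 0.00062). In tubular nuclei it went from 2.00 and 3.27 CPM to 0.42 and 0.88 CPM. Nr1d2 fell from 109 and 120 CPM to 33.6 and 39.9 CPM in other nuclei (log2 change -1.64, edgeR adjusted p = 0.0023) and measured 21.1 and 25.2, then 8.03 and 12.1 CPM in tubular nuclei. Both genes were thus lower at ZT16 in both compartments, at a level that was lower in the tubule.

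Cry1 rose in other nuclei from 18.5 and 15.9 CPM to 39.3 and 42.4 CPM (log2 change 1.25, edgeR adjusted p = 0.0251), against a log2 change of 2.10 in Ctrl. In tubular nuclei of the same libraries it measured 50.4 and 34.5 CPM at ZT4 against 46.1 and 47.6 CPM at ZT16 (log2 change 0.14), where Ctrl tubules changed by 3.13. Per2 measured 41.6 and 17.6, then 101 and 59.1 CPM in other nuclei and 88.4 and 48.4, then 123 and 68.9 CPM in tubular nuclei. Neither passed, although the other nuclei did not overlap. Dbp measured 8.69 and 17.3, then 2.51 and 3.73 CPM in other nuclei (log2 change -2.08, edgeR adjusted p = 0.0697) and 1.55 and 2.56, then 1.48 and 1.31 CPM in tubular nuclei (log2 change -0.57, edgeR adjusted p = 0.728). Arntl overlapped between time points in both compartments of cKOt.

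The remaining genes called in other nuclei were the matrix protein gene Mgp, an inhibitor of calcification (47.2 and 55.0, then 163 and 171 CPM), Vstm2b (1.16 and 1.94, then 9.26 and 7.81 CPM), the secreted factor gene Ccdc3 (log2 change -1.86) and the lncRNA Gm13387 (35.5 and 44.8, then 12.9 and 15.2 CPM). Of the 7 called genes, 6 had the same direction in Ctrl and 4 were called there too, where 22 of 17538 genes were.

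The difference of the time effects between compartments, tested with library as a block, passed for 2 of 20175 genes (0.00991%), with 1580 at an unadjusted p under 0.05 and 36 called by DESeq2. Col8a1, a short-chain collagen, had log2 changes of -1.54 in tubular and -0.29 in other nuclei, a difference of 1.24. Nat8f3 had -0.19 and 1.64, a difference of 1.87, and as a member of a family of near-identical genes its count is uncertain. No clock gene passed. The differences were 1.10 for Cry1 (edgeR adjusted p = 0.075), -2.37 for Nr1d1 (0.081), 1.01 for Per2 (0.083) and -1.49 for Dbp (0.11). The count was 67 without cKOt ZT4 replicate 1, 12 without cKOt ZT16 replicate 2, 6 without cKOt ZT4 replicate 2, 7 without either Ctrl ZT4 library and 0 without cKOt ZT16 replicate 1.

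**Figure D2:**
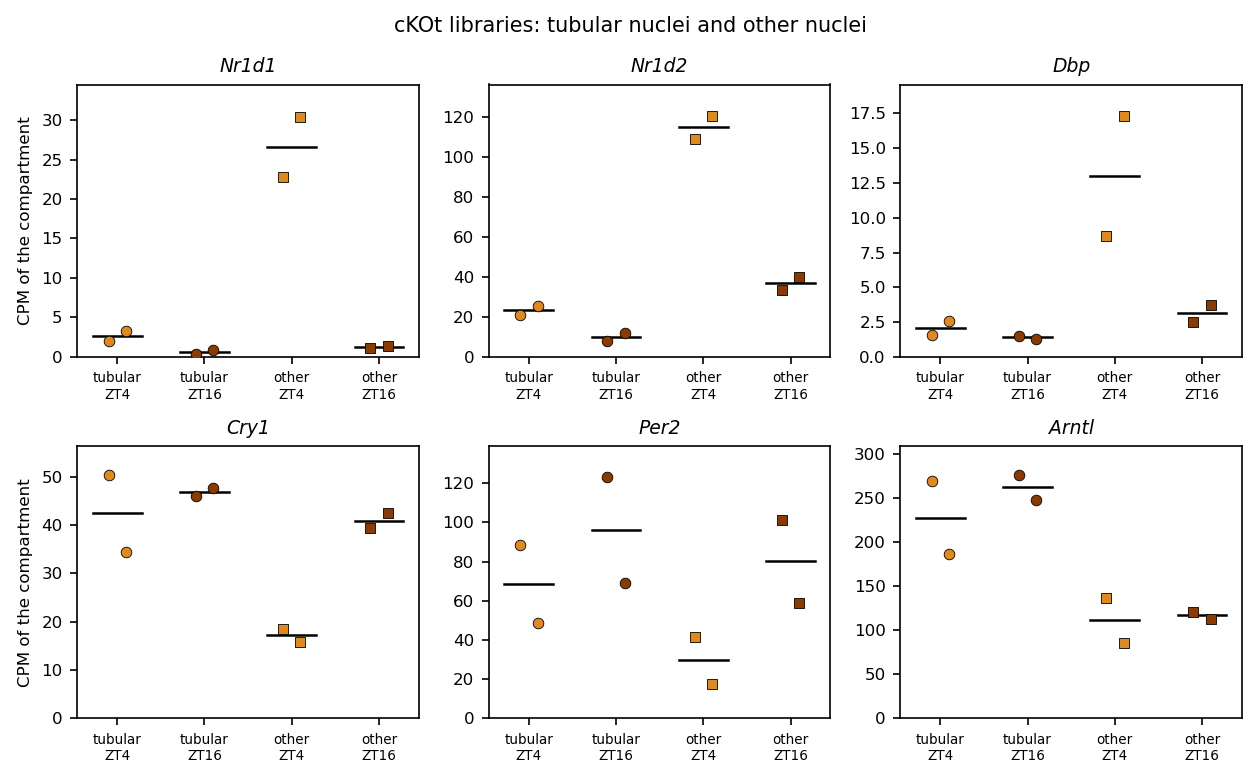
CPM (vertical axes, linear) of 6 clock genes in the 4 cKOt libraries, summed over tubular nuclei and over other named nuclei, at ZT4 and ZT16. Nr1d1, Nr1d2 and Cry1 passed the test in other nuclei, while the 2 time points of Cry1 and Arntl overlap in tubular nuclei.

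By class, called genes were counted in the same model. In cKOt edgeR called 65 of 14999 genes in thick ascending limb (0.433%), 16 of 14871 in endothelium (0.108%), 7 of 14794 in stromal and mural nuclei (0.0473%), 7 of 12197 in intercalated cells (0.0574%), 4 of 7277 in podocytes (0.055%) and 1 of 15732 in distal tubule with collecting duct (0.00636%). It called 0 in proximal tubule, thin limb and immune nuclei, where 1246, 796 and 560 genes had an unadjusted p under 0.05 and DESeq2 called 93, 3 and 0. Proximal tubule without cKOt ZT4 replicate 2, the library that stands apart there, gave 1 call, Col8a1, and without replicate 1 gave 9. In all, 86 genes were called in at least 1 class and 9 in at least 2. Nr1d2 and Scd1 were called in 4 classes and Nr1d1 in 3.

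**Figure D3:**
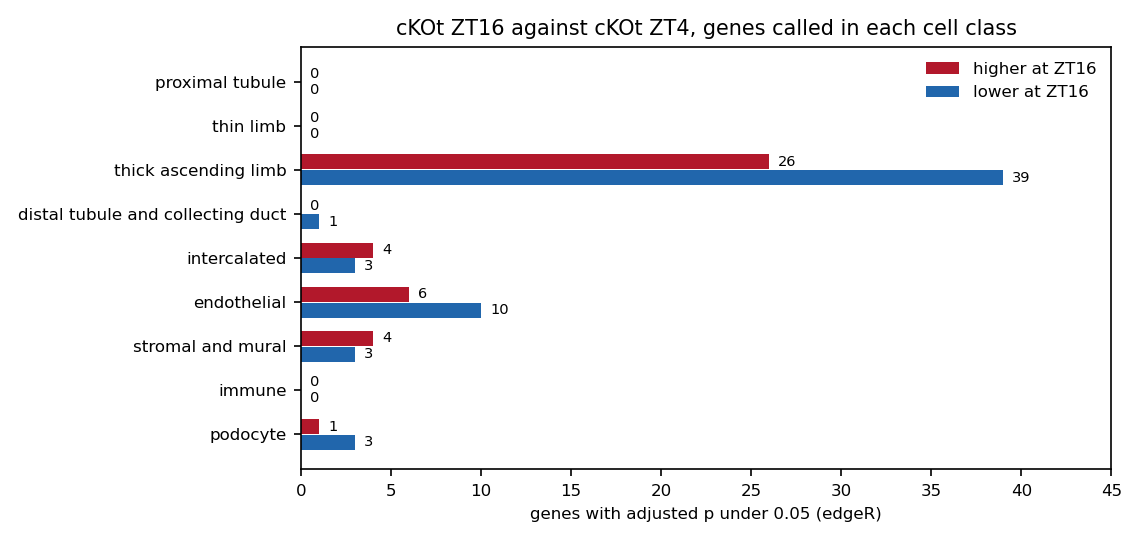
Number of genes called by edgeR between ZT16 and ZT4 in cKOt (adjusted p under 0.05) in each nucleus class, split into higher and lower at ZT16. Thick ascending limb has 26 higher and 39 lower, endothelium 6 and 10, and each other class 7 or fewer in all.

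The thick ascending limb, the segment that takes up sodium chloride by Slc12a1 and secretes uromodulin, was the class with the most calls by edgeR, while DESeq2 called 100 genes there and 118 in stromal and mural nuclei. Of the 65 genes, 26 were higher and 39 lower at ZT16 (0.173% and 0.26%). All had groups that did not overlap (17.7% of genes upwards and 18.7% downwards over all nuclei). In Ctrl 62 had the same direction and 38 were called, where 154 of 15192 genes of the class were. How many of all genes of the class had the same direction in both genotypes was not counted. The genotype difference was called for 2, Scd1 and Gpr39. It had an unadjusted edgeR p under 0.05 in 16 of the 65, against 525 of 15573 genes tested. The cKOt change that chose the 65 is part of the genotype difference, so these shares are not on equal terms. The median absolute log2 change of the 65 was 1.18 in cKOt, where they were chosen, and 0.94 in Ctrl. Among them were 13 lncRNAs, 2 higher and 11 lower. Over all nuclei lncRNAs made up 4612 of the 20930 genes tested, and their share among the genes tested in this class was not counted. The count was 7 without cKOt ZT16 replicate 1, 13 without cKOt ZT4 replicate 2, 17 without cKOt ZT16 replicate 2 and 103 without cKOt ZT4 replicate 1.

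Of the 16 listed ER chaperones and their partners, 12 were called higher in this segment, where 0.173% of all genes tested were. Pdia6, a disulfide isomerase, measured 21.1 and 21.7 CPM at ZT4 against 67.8 and 67.2 CPM at ZT16, and it rose by 1.65 ± 0.15 (edgeR adjusted p = 0.0006, Ctrl change 1.31). This call held without each of the 8 libraries, with log2 changes from 1.65 to 1.68. Hspa5, the master chaperone BiP, rose from 53.6 and 36.9 CPM to 176 and 113 CPM (log2 change 1.69 ± 0.24, edgeR adjusted p = 0.0068, Ctrl change 1.84). Calr, the calcium-binding lectin calreticulin, rose from 34.6 and 34.8 CPM to 95.6 and 70.9 CPM. Hsp90b1, the ER member of the HSP90 family, measured 91.0 and 70.7, then 238 and 169 CPM, and Xbp1, a transcription factor of the unfolded protein response, 35.8 and 25.6, then 69.2 and 63.3 CPM. Pdia4, Dnajb11, Creld2, Manf, Dnajc3, Pdia3 and Canx were called as well, with changes from 0.71 (Canx) to 1.87 (Creld2). The members beyond Pdia6 and Calr are named as a group after their values were seen. All 16 had a positive change, with a median log2 change of 1.24 beside 0.00 over all genes of the class, and the Ctrl median was 1.06. None of the 16 differed between genotypes in edgeR, with 1 at an unadjusted p under 0.05. In 16 of 16, replicate 1 at ZT16 was above replicate 2. Leaving out cKOt ZT16 replicate 1 left 1 called, cKOt ZT4 replicate 2 left 2, cKOt ZT16 replicate 2 left 9 and cKOt ZT4 replicate 1 left 11, with medians from 1.04 to 1.44.

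The stretches before the start of 4 of these genes are shown because 7 of the 14 chaperone genes in the promoter table hold the ER stress element, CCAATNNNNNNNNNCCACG, which 0.119% of all promoters hold. The element is a known binding site of ATF6 and XBP1 together with NF-Y, and it was chosen after the values were seen. The 250 bases before the start follow on the strand of each gene, with the element, or its reverse complement, in capitals, for Pdia6 (chr12:17266339-17266588, plus strand), Hspa5 (chr2:34771840-34772089, plus strand), Hsp90b1 (chr10:86705445-86705694, minus strand) and Calr (chr8:84846932-84847181, minus strand), all of GRCm38.p6 from RefSeq.
Pdia6: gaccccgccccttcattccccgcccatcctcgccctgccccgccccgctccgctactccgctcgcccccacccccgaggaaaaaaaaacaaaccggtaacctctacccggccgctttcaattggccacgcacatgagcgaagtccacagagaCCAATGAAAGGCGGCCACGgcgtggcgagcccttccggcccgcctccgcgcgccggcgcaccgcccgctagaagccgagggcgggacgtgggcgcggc
Hspa5: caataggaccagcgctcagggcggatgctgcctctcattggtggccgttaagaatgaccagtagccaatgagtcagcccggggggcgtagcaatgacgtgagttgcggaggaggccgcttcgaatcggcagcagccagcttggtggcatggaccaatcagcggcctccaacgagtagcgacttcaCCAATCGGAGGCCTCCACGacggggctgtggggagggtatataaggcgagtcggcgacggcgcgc
Hsp90b1: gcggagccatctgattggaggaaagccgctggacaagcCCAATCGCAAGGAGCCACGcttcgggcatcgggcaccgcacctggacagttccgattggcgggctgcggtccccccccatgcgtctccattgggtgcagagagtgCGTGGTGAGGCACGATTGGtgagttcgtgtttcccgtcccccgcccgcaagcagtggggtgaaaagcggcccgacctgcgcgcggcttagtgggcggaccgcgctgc
Calr: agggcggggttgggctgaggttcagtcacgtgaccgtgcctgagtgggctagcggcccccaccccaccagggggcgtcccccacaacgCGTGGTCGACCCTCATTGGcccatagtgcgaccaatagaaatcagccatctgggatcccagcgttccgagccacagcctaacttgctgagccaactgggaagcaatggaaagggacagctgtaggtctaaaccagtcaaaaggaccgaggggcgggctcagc
The match begins 98 bases before the start in Pdia6, 65 in Hspa5 and 162 in Calr, and Hsp90b1 has matches at 212 and 107. Canx, Creld2 and Dnajc3 are the others with a match. A match describes the letters only, and Pdia4 and Dnajb11, which hold none, rose with the rest.

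Over all nuclei the same 16 genes were higher at ZT16 in cKOt, with groups that did not overlap in 16 of 16 (17.7% over all genes), a median log2 change of 1.11 beside -0.01 over all genes, and a range of 0.37 to 1.81. None passed in edgeR, 15 had an unadjusted p under 0.05 (1787 of 20930 over all genes), and DESeq2 called 11 (0.425% higher over all genes). Pdia6 measured 25.0 and 28.6 CPM at ZT4 against 78.0 and 58.3 CPM at ZT16 (log2 change 1.35 ± 0.17, edgeR adjusted p = 0.0724), and Hspa5 64.3 and 38.9, then 203 and 101 CPM (1.56 ± 0.32, adjusted p = 0.206). Both ZT16 libraries lay above both ZT4 libraries, and replicate 1 was the higher at ZT16 in 16 of 16 members. Creld2 (4.33 and 4.00, then 19.9 and 8.95 CPM), Pdia4 (12.9 and 13.7, then 50.5 and 26.7 CPM) and Dnajb11 (22.4 and 21.6, then 54.9 and 37.9 CPM) had the other smallest p values. The Ctrl median was 0.73, and 2 of 16 differed between genotypes at an unadjusted p under 0.05 with 0 called by edgeR. The median was 0.76 without cKOt ZT16 replicate 1 and 1.05 to 1.37 without each other cKOt library.

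The chaperones were also read by class. In 9 of 9 classes Hspa5 had a positive change, from 0.62 to 1.83, as had Pdia6, from 0.60 to 1.83. The median of the 16 members was 1.33 in proximal tubule, where 14 had an unadjusted p under 0.05 and none was called by edgeR, 0.74 in endothelium, where Hsp90b1 was called, and 1.05 in stromal and mural nuclei, where Hspa5 was called. In endothelium 0 members were called when any 1 of the 4 cKOt libraries was left out, and in stromal and mural nuclei 0 without cKOt ZT4 replicate 2 or cKOt ZT16 replicate 1. Hspa5 in proximal tubule measured 67.6 and 24.2 CPM at ZT4 against 228 and 98.0 CPM at ZT16 (edgeR adjusted p = 0.385), a wide spread at both times. Several members overlap other genes on the opposite strand (Hspa5 with Rabepk, Pdia6 with Atp6v1c2, Xbp1 with Ccdc117), and Manf overlaps Rbm15b on its own strand.

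**Figure D4:**
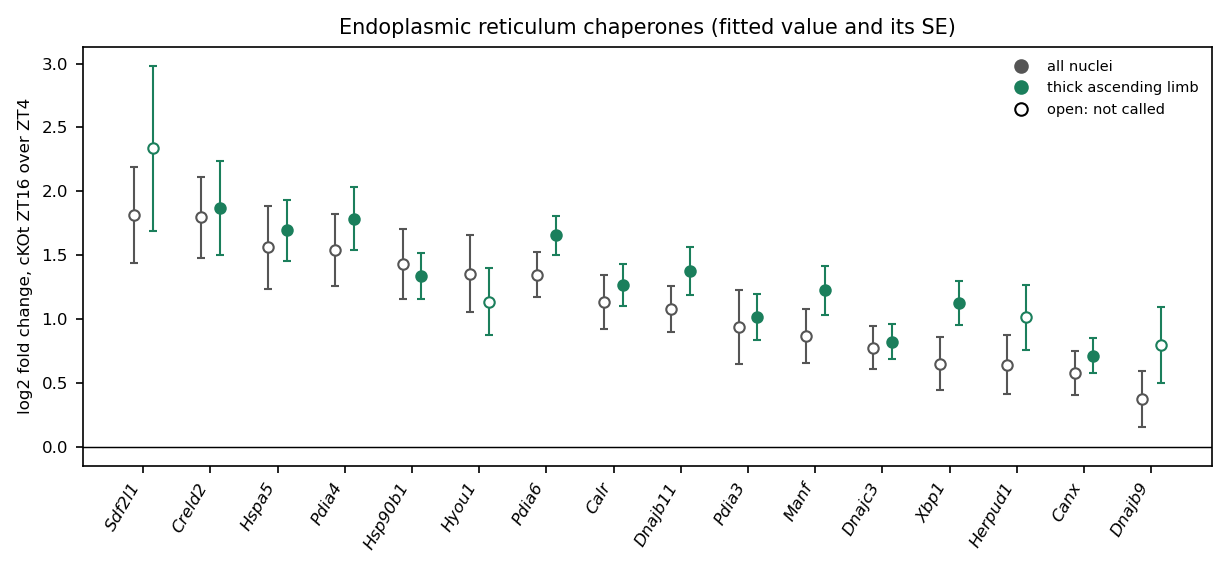
Log2 fold change of cKOt ZT16 over cKOt ZT4 with its SE for the 16 ER chaperone genes, in sums over all nuclei and over thick ascending limb nuclei. Filled points passed the edgeR test and open points did not. All values lie above 0, and 12 are filled in thick ascending limb and 0 over all nuclei.

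Other genes of the thick ascending limb, named beyond the 3 with the smallest p after their values were seen, can be read by role. Magt1, a magnesium transporter and subunit of the oligosaccharyltransferase, rose from 65.1 and 54.2 CPM to 119 and 126 CPM, and Rpn1, a subunit of the same complex, by 0.88. Klk1, the renal kallikrein, rose from 97.5 and 114 CPM to 173 and 197 CPM, and beta-actin (Actb) from 54.3 and 65.0 CPM to 126 and 113 CPM. Nccrp1 (30.5 and 34.6, then 90.8 and 78.3 CPM) had a change of 1.37. Among genes that fell were Nr1d2 (35.8 and 42.0, then 7.17 and 13.5 CPM, edgeR adjusted p = 0.0031), Rad51b, a gene of DNA repair (45.2 and 62.0, then 16.9 and 21.4 CPM), the potassium channel gene Kcnt1 (217 and 256, then 123 and 122 CPM) and the lysophospholipase gene Pnpla7 (83.1 and 103, then 43.9 and 47.3 CPM). Angptl4, a PPAR target that inhibits lipoprotein lipase, measured 5.76 and 15.2, then 1.49 and 1.48 CPM (log2 change -2.84, Ctrl -0.26), and Cyp24a1, which breaks down active vitamin D, 8.65 and 27.9, then 3.59 and 3.69 CPM (-2.37, Ctrl -0.04). In both, cKOt ZT4 replicate 2 was the higher of the pair at ZT4.

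Gpr39 moved one way in cKOt and the other in Ctrl. The gene encodes a zinc-sensing receptor. It fell in thick ascending limb from 80.0 and 76.7 CPM to 43.3 and 42.8 CPM in cKOt while its Ctrl change was 1.44, a difference of -2.30 that passed the test between genotypes. In podocytes it fell from 258 and 238 CPM to 42.7 and 33.8 CPM (log2 change -2.70 ± 0.40, edgeR adjusted p = 0.0025), against 3.46 in Ctrl, and this difference of -6.16 passed too. Its podocyte UMIs in Ctrl were 10 and 1 at ZT4 and 52 and 72 at ZT16, so the Ctrl change rests on few counts at ZT4. Gpr39 overlaps Lypd1, named after its values were seen, on the opposite strand, and whether strand was counted is not known. In podocytes Lypd1 held 5 and 3 UMIs at cKOt ZT4 against 0 and 0 at ZT16, and 0 and 0, then 8 and 8 UMIs in Ctrl. Pde10a, a phosphodiesterase of cyclic nucleotides, rose in thick ascending limb from 68.0 and 46.2 CPM to 127 and 212 CPM (Ctrl change -0.50) and in podocytes from 98.4 and 59.6 CPM to 485 and 174 CPM (Ctrl change 1.73). The podocyte sums rest on 55 to 98 nuclei a cKOt library and 53 to 76 a Ctrl library, and DESeq2 called 0 genes there in cKOt.

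Podocytes had 1 gene higher and 3 lower (0.0137% and 0.0412%), and the lower ones included both REV-ERB genes. Nr1d1 had 14 and 15 UMIs in the ZT4 libraries and 0 in both ZT16 libraries, which makes it at least 11-fold lower with a floor of 3 counts over the group. Nr1d2 fell from 123 and 116 CPM to 24.4 and 20.8 CPM (edgeR adjusted p = 0.0063). The count of 4 was 1 without either cKOt ZT16 library.

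In endothelium, which Cre does not target, the calls with the smallest p were again Nr1d2 (134 and 135, then 31.0 and 36.1 CPM, log2 change -2.004 ± 0.16, edgeR adjusted p = 0.00013, Ctrl -1.58) and Nr1d1 (26.8 and 33.0, then 1.46 and 2.41 CPM, -3.93 ± 0.34, adjusted p = 0.000277, Ctrl -3.72). Both calls held without each library. Cry1, one of the genes named by its role, rose from 17.9 and 15.4 CPM to 38.3 and 41.7 CPM (log2 change 1.27 ± 0.20, edgeR adjusted p = 0.0382, Ctrl 2.16). Dbp measured 8.82 and 24.6, then 1.46 and 3.13 CPM and did not pass (log2 change -2.89). Of the 16 called genes, 6 were higher and 10 lower (0.0403% and 0.0672%). In Ctrl 16 had the same direction and 14 were called, where 93 of 15063 genes of the class were. Their median absolute log2 changes were 1.32 in cKOt and 1.25 in Ctrl. Acmsd rose from 22.6 and 16.6 CPM to 71.3 and 54.9 CPM, Palm, a membrane-shape protein, from 96.2 and 105 CPM to 191 and 186 CPM, and Chrm3, a muscarinic receptor, from 1445 and 1312 CPM to 2326 and 2287 CPM. Acmsd was also a leading gene of a proximal tubule cluster, and the part of free tubular RNA in its endothelial values was not tested. Ccdc3 fell from 51.5 and 69.1 CPM to 13.7 and 14.9 CPM, and Gm13387 from 70.3 and 77.1 CPM to 28.3 and 30.4 CPM. The count was 7 without cKOt ZT4 replicate 2, 3 without cKOt ZT16 replicate 1 and 2 without cKOt ZT16 replicate 2.

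Stromal and mural nuclei, outside the reach of Cre as well, had 7 calls, 4 higher and 3 lower (0.027% and 0.0203%). Nr1d1 fell from 19.04 and 28.3 CPM to 0.964 and 0.549 CPM (log2 change -4.89 ± 0.50, edgeR adjusted p = 0.0029, Ctrl -3.72). St6galnac3, a sialyltransferase, fell from 289 and 321 CPM to 75.9 and 92.2 CPM (-1.86 ± 0.18, Ctrl -0.83), and Abca6, a lipid transporter of the ABC family, from 81.3 and 70.1 CPM to 27.5 and 33.5 CPM. Mgp rose from 102 and 129 CPM to 335 and 363 CPM (1.59 ± 0.22, adjusted p = 0.0383, Ctrl 0.39), the adhesion molecule Vcam1 from 16.1 and 16.2 CPM to 43.6 and 65.6 CPM (Ctrl 0.37), Hspa5 from 69.2 and 58.7 CPM to 285 and 159 CPM, and Cry1 from 16.8 and 17.2 CPM to 41.4 and 44.7 CPM (1.34, Ctrl 2.27). All 7 had the same direction in Ctrl, and 2 were called there, where 17 of 15071 genes of the class were. Of the 7, 6 differed between genotypes at an unadjusted p under 0.05 (894 of 15410 genes tested) with 0 called by edgeR. The cKOt change that chose the 7 is part of this difference, so these shares are not on equal terms. Summed adipocyte-gene CPM in these nuclei was 13.6 and 54.6 at ZT4 and 0.482 and 3.02 at ZT16, and the part of such RNA in these calls was not tested. The count was 92 without cKOt ZT4 replicate 1, 66 and 58 without Ctrl ZT4 replicate 1 and 2, 3 without cKOt ZT4 replicate 2 and 0 without cKOt ZT16 replicate 1.

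Intercalated cells, which secrete acid or base, had 4 genes higher and 3 lower (0.0328% and 0.0246%). Of these 7, 4 had the same direction in Ctrl and 2 were called there. The genotype difference had an unadjusted edgeR p under 0.05 in 6 of them, against 482 of 12636 genes tested, and was called for 1. Since the cKOt change that chose these genes is part of that difference, the shares are not on equal terms. Sctr, the secretin receptor, rose from 68.5 and 52.6 CPM to 182 and 138 CPM in cKOt (log2 change 1.40), against -1.20 in Ctrl, and the difference of 2.60 passed. Ranbp3l rose from 105 and 133 CPM to 308 and 354 CPM, and Gm47283 from 6.71 and 11.4 CPM to 78.3 and 183 CPM. Cntnap5b fell from 44.0 and 58.7 CPM to 11.5 and 7.16 CPM, and Nr1d2 from 23.8 and 23.6 CPM to 5.13 and 7.16 CPM. With at least 20 counts required none was called, and the count was 0 without cKOt ZT4 replicate 2 or cKOt ZT16 replicate 2, 1 without cKOt ZT16 replicate 1, 2 and 3 without Ctrl ZT16 replicate 1 and 2, and 13 without cKOt ZT4 replicate 1.

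Arntl, Npas2 and Cry1 had no called time difference in cKOt in any tubular class. In thick ascending limb Arntl measured 296 and 220 CPM at cKOt ZT4 against 288 and 273 CPM at ZT16, against 6.99 and 6.26, then 172 and 171 CPM in Ctrl, a difference of -4.58. In proximal tubule Arntl had a difference of -3.51 and Cry1 of -3.50. Npas2 also differed in endothelium, by -3.02, with 103 and 91.1, then 112 and 110 CPM in cKOt and 2.67 and 4.13, then 29.5 and 36.7 CPM in Ctrl. In proximal tubule of the same cKOt libraries Npas2 measured 477 to 567 CPM, and the part of free tubular RNA in the endothelial value was not tested.

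Of the other gene groups, cholesterol synthesis and SREBP2 targets leaned higher at ZT16. Of 22 genes 19 were higher over all nuclei, 14 without overlap (17.7% over all genes), with a median log2 change of 0.37 (Ctrl 0.38). Idi1, an isomerase of the isoprenoid pathway, measured 20.9 and 19.1, then 39.8 and 30.1 CPM (edgeR adjusted p = 0.222, DESeq2 0.0181). None was called by edgeR, 9 had an unadjusted p under 0.05 (1787 of 20930 over all genes), and DESeq2 called 1 (0.874% over all genes). In proximal tubule 21 of 22 were higher with a median of 0.58, and in thick ascending limb 13 of 21 with a median of 0.06. The list leaned lower in intercalated cells (14 of 19 lower, median -0.31), immune nuclei (10 of 14, -0.27) and stromal and mural nuclei (13 of 21, -0.17).

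PPAR alpha targets and genes of fatty acid oxidation leaned the other way. Of 23 tested, 20 were lower at ZT16, 12 without overlap (18.7% over all genes), with a median of -0.33 in cKOt and 0.06 in Ctrl, and 1 differed between genotypes at an unadjusted p under 0.05. Pdk4, which shuts pyruvate out of oxidation, measured 13.4 and 21.6, then 7.05 and 8.18 CPM. Cpt1a, the gate of fatty acids into mitochondria, measured 146 and 166, then 108 and 113 CPM. None was called over all nuclei by edgeR or DESeq2, with 7 at an unadjusted p under 0.05 (1787 of 20930 over all genes). In thick ascending limb 2 of 22 were higher and 20 lower, and Angptl4 was called. Over all nuclei cKOt ZT4 replicate 1 was above replicate 2 in 7 of the 23 members. Replicate 2 is the library whose proximal tubule nuclei stood apart, and it also held the most UMIs of adipocyte genes (9.71 CPM, against 3.52 CPM in replicate 1 and 0.584 to 1.53 CPM in the other 6 libraries). Their part in the lower values was not tested.

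Heat shock genes, which follow body temperature and stress, had a median of -0.13 in cKOt and 0.64 in Ctrl. Of 24, 17 were lower at ZT16 in cKOt and none reached an unadjusted p under 0.05 in edgeR or was called by DESeq2, while 4 differed between genotypes at an unadjusted p under 0.05 with 0 called. Replicate 1 was above replicate 2 in 22 of 24 members at cKOt ZT4 and in 19 at ZT16, as in Hsph1, chosen after its values were seen, which measured 194 and 56.2 CPM at ZT4 against 107 and 71.4 CPM at ZT16. Glucocorticoid receptor targets were lower in 14 of 19 (median -0.21, Ctrl 0.23), and genes of the amino acid and ATF4 response in 11 of 16 (-0.22, Ctrl 0.23). Sodium transport genes were higher in 18 of 24, 8 of them without overlap, and 2 were lower without overlap (17.7% and 18.7% over all genes), with a median of 0.11. Scnn1g, a subunit of the epithelial sodium channel, measured 22.7 and 28.7, then 36.5 and 38.2 CPM (edgeR adjusted p = 0.33), and Hsd11b2, which guards the mineralocorticoid receptor, 15.4 and 22.6, then 28.9 and 27.8 CPM.

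Water, urea and vasopressin genes had a median of 0.16 (Ctrl 0.52), immediate early genes of 0.21 with 14 of 22 higher, and tubular injury genes of 0.32 with 9 of 13 higher. Serum response factor targets (median -0.01), drug transporters (0.05), cytochrome P450 and phase II enzymes (0.02), gluconeogenesis genes (-0.01), ribosome biogenesis genes (0.03), cyclin genes (-0.03), the pair of cold-inducible RNA-binding protein genes (-0.05) and the listed lncRNAs (0.09) lay near the median of all genes. Single members lay further out, with log2 changes of -1.24 to 0.29 among the lncRNAs, -0.82 to 1.10 among the cyclin and growth arrest genes and -0.51 to 0.74 among the serum response factor targets. Of these lists 2, 0 and 3 members had an unadjusted edgeR p under 0.05 (1787 of 20930 over all genes). Members of the P450 and transporter lists that lay apart included Cyp24a1, at 32.8 and 115, then 14.7 and 18.6 CPM (DESeq2 adjusted p = 0.037), where the high value is that of cKOt ZT4 replicate 2, the drug efflux gene Abcc4, at 242 and 205, then 107 and 157 CPM, and the organic anion transporter gene Slc22a28, at 383 and 330, then 529 and 526 CPM. These 3 did not pass by edgeR (adjusted p = 0.217, 0.391 and 0.237). Cyp24a1 was the leading gene of 1 of the 2 proximal tubule clusters that set this library apart, with 1352 of its nuclei against 7 to 33 of each other cKOt library.

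Of 16 genes of fatty acid synthesis and SREBP1 targets, 7 were higher and 9 lower over all nuclei, with a median of -0.05 (Ctrl 0.39). In edgeR 5 had an unadjusted p under 0.05 (1787 of 20930 over all genes) and 0 were called. DESeq2 called 2 (0.874% over all genes). Scd2, a desaturase of the same family as Scd1, measured 26.2 and 22.9, then 31.3 and 39.4 CPM (log2 change 0.52, edgeR adjusted p = 0.347). Scd1, the desaturase that makes oleate and a gene of this list, was lower at ZT16 in cKOt, as were the adipocyte genes over all nuclei. Over all nuclei it measured 10.4 and 18.8 CPM at cKOt ZT4 against 1.62 and 0.899 CPM at ZT16 (log2 change -3.53 ± 0.41, edgeR adjusted p = 0.0661), with 3.30 to 5.03 CPM in the 4 Ctrl libraries. It was lower at ZT16 in 8 of 8 classes tested and called in 4. In distal tubule with collecting duct it fell from 14.9 and 23.5 CPM to 0.665 and 0.563 CPM (-4.94 ± 0.41, edgeR adjusted p = 0.0018), in thick ascending limb from 11.8 and 20.7 CPM to 1.05 and 0.738 CPM (-4.15), in endothelium from 15.3 and 25.4 CPM to 1.95 and 0.964 CPM (-3.80) and in intercalated cells from 14.2 and 27.4 CPM to 1.28 and 1.30 CPM (-3.92). In each of these classes cKOt ZT4 replicate 2 was the highest library. The differences from Ctrl passed in distal tubule with collecting duct (-4.68) and thick ascending limb (-4.63), but over all nuclei the difference of -3.54 did not (edgeR adjusted p = 0.223). The thick ascending limb call held without each library, the endothelial and intercalated calls were lost without cKOt ZT4 replicate 2 or either cKOt ZT16 library, and the distal call was lost without either cKOt ZT16 library.

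The dropped brown adipocyte nuclei were unevenly spread. There were 22 and 41 in the cKOt ZT4 libraries, 2 and 0 at cKOt ZT16, 1 and 2 at Ctrl ZT4 and 4 and 0 at Ctrl ZT16. In those of cKOt ZT4 Scd1 stood at 875 and 1307 CPM without TMM scaling. In the nuclei that were kept, UMIs of the 10 adipocyte genes still came to 3.52 and 9.71 CPM at cKOt ZT4, 0.584 and 0.856 CPM at cKOt ZT16 and 0.993 to 1.53 CPM in Ctrl, with 8 to 10 of the genes seen in every library. Ucp1, the uncoupling protein of brown fat, had 5 and 39 UMIs in proximal tubule nuclei at ZT4 and 0 in both ZT16 libraries. These genes were used to drop nuclei, so their values are given without a test. Over all nuclei adipocyte genes and Scd1 were highest in the same library. In thick ascending limb cKOt ZT4 replicate 2 held 6.53 CPM of adipocyte genes, whereas replicate 1 held 0.721 CPM, from 3 UMIs, within the 0.360 to 0.923 CPM of the Ctrl and cKOt ZT16 libraries. Scd1 was at 11.8 CPM in that replicate 1 and at most 5.14 CPM in those 6 libraries. In distal tubule with collecting duct replicate 1 held 3.27 CPM of adipocyte genes, against at most 1.03 CPM in those libraries. In endothelium it held 3.82 CPM, against at most 2.07 CPM. In intercalated cells it held 1.49 CPM, below the 2.03 CPM of Ctrl ZT4 replicate 2. The part of adipocyte RNA in the Scd1 values of any class was not tested. With the dropped nuclei kept, edgeR called 2 genes over all nuclei, as without them.

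**Figure D5:**
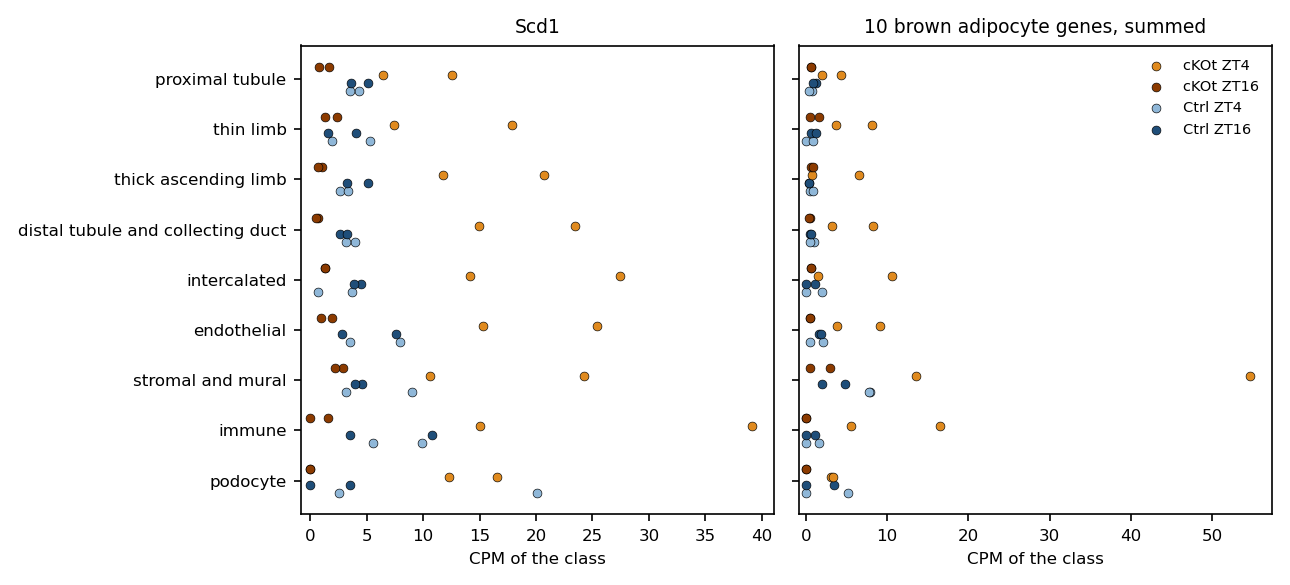
CPM of Scd1 and summed CPM of the 10 brown adipocyte genes in the nuclei kept after the drop, by nucleus class and library. A cKOt ZT4 library is the highest for both in each class except podocytes, where a Ctrl ZT4 library is.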

How the data were processed

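Nuclei were profiled by droplet single-nucleus RNA-seq in 8 mouse kidneys, 2 for each of 4 groups. The authors aligned reads with Cell Ranger 7.1.0 (mm10 reference per their methods, GRCm39 per the submitters' processing notes, which also name bcl2fastq 2.20 and Seurat 5) and deposited raw UMI counts for 32285 features per called barcode, without normalization. No source used here says whether introns or strand entered the counting.

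A nucleus was kept from 500 genes and 800 UMIs upwards if mitochondrial genes gave 2% of its UMIs or less. Nuclei with 3 or more of the 10 adipocyte genes (Adipoq, Plin1, Cidec, Retn, Ucp1, Elovl3, Adrb3, Cyp2b10, Otop1, Dio2) were dropped, and doublets were not called. The remaining 8756 to 10975 nuclei per cKOt library had median UMI counts of 3339.5 to 4830. UMI counts were added up over the nuclei of a library, or of 1 class in it, without the 13 mitochondrial genes. Nuclei were clustered over 2000 variable genes, 50 principal components and 20 neighbours at resolution 2.0 (igraph 0.11.9, leidenalg 0.10.2). Of 72 clusters 59 were named, where at least 3 markers of a class were 2-fold above other nuclei and in 10% of nuclei. The next class could reach at most 0.6 of that number of markers. That rule was set after the clusters were seen, and the 3220 unnamed nuclei entered sums over all nuclei only.

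The quasi-likelihood test of edgeR 4.0.16 with TMM scaling was fitted to 4 groups at once. A gene was tested if both replicates of 1 or more of the groups compared held 5 counts, with Benjamini-Hochberg adjustment over all genes tested and a limit of 0.05. The fit had 4 residual degrees of freedom, and the common biological coefficient of variation was 0.1663. DESeq2 1.42.0 was the other tool (R 4.3.3, limma 3.58.1, Python 3.11.15, numpy 2.4.6, scipy 1.17.1, pandas 2.3.3). Each library is 1 mouse, with 2 a group. The p-values rest on the spread between replicates pooled over the 4 groups, with a median of 5.23 prior degrees of freedom borrowed across genes. Deviations that equal replicate numbers shared within a time point were not modelled. The scripts were tested on simulated data with known changes. Gene lists, described by counts and medians, and members were chosen with earlier results of these data known. Named were every clock gene, the called genes and lncRNAs with the smallest p (12 and 5 a direction over all nuclei, 6 in the genotype difference, 3 a class) and the 4 members of each other list with the smallest p. A few genes that this rule names are not reported here, though they remain in the fits and counts. Overlapping genes came from a GENCODE annotation of another build, used without coordinates. Alternatives were size factors, filters, tools, separate fits by biotype, a replicate block, nuclei matched in composition, cKOt alone and each library left out. Added after seeing the data were the newer edgeR fit, the leaving out of proximal tubule nuclei and the chaperone counts without each cKOt library.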

Additional observations from a re-analysis of the deposited data

Results flagged for a closer look

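The results below differed between genotypes or compartments by a test of the difference itself (edgeR, adjusted p under 0.05). The numbers of dropped adipocyte nuclei are counts without a test. Differences between genotypes are given as the log2 time effect in cKOt minus that in Ctrl.

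Clock genes had a lower change in cKOt. Npas2 differed by -2.13 over all nuclei, -3.02 in endothelium, -2.49 in thick ascending limb and -2.23 in thin limb. Cry1 differed by -2.48 over all nuclei, -2.89 in distal tubule with collecting duct, -2.40 in intercalated cells, -3.50 in proximal tubule and -2.76 in thick ascending limb. Arntl differed by -3.51 in proximal tubule, -4.58 in thick ascending limb and -3.13 in thin limb.

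Rhobtb1 differed by -1.97 over all nuclei, -1.51 in intercalated cells, -3.40 in podocytes and -1.82 in thick ascending limb. Lonrf3 differed by -2.14 in distal tubule with collecting duct and -1.89 in thick ascending limb, and the lncRNA C030037D09Rik by -1.92 in thick ascending limb. Gpr39, with opposite directions in the genotypes, differed by -6.16 in podocytes and -2.30 in thick ascending limb, and Sctr by 2.60 in intercalated cells. The podocyte value of Gpr39 rests on 10 and 1 UMIs at Ctrl ZT4.

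Scd1 differed by -4.68 in distal tubule with collecting duct and -4.63 in thick ascending limb. Over all nuclei the cKOt ZT4 libraries also held the most adipocyte RNA, while in thick ascending limb replicate 2 did, at 6.53 CPM, and replicate 1 did not, at 0.721 CPM. In distal tubule with collecting duct both did, at 3.27 CPM in replicate 1 and 8.32 CPM in replicate 2. The part of that RNA was not tested. The 22 and 41 brown adipocyte nuclei dropped from the cKOt ZT4 libraries, outside every comparison, stood against 0 to 4 in each other library.

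Between compartments of cKOt, other minus tubular nuclei, Col8a1 differed by 1.24 and Nat8f3 by 1.87.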

How the results depend on the processing

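No result reversed its direction under any alternative in which it or the main value was called. Libraries held 36545383 to 54468468 UMIs, and each group had 2 mice. Podocyte sums rest on 55 to 98 nuclei a cKOt library and 53 to 76 a Ctrl library. Which of these limits the calls was not tested.

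Over all nuclei the 2 genes called in cKOt, 0 higher and 2 lower at ZT16, became 125 (66 higher, 59 lower) with no filter on low counts, 183 (89 and 94) with DESeq2, 15 (7 and 8) with mRNAs and lncRNAs fitted separately, 6 (2 and 4) in nuclei matched in composition, 0 (0 and 0) in the cKOt libraries alone, and 3 with proximal tubule nuclei left out. Without 1 library the count ran from 0 to 7, with 0 to 1 higher and 0 to 7 lower. The 3 genes that differed between genotypes became 19 (7 with a higher and 12 with a lower change in cKOt) with no filter, 39 (21 and 18) with DESeq2, 5 (0 and 5) in matched nuclei, and 0 (0 and 0) with proximal tubule nuclei left out. Without 1 library the count ran from 0 to 2, with 0 to 1 higher and 0 to 2 lower.

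By class, DESeq2 called 93 genes in proximal tubule, 3 in thin limb, 100 in thick ascending limb, 51 in distal tubule with collecting duct, 58 in endothelium, 118 in stromal and mural nuclei, 0 in podocytes and 36 between compartments. Requiring at least 20 counts left 0 in intercalated cells, 2 in stromal and mural nuclei and 2 in podocytes, and RLE size factors gave 24 in stromal and mural nuclei. Without 1 library the counts ran from 0 to 9 in proximal tubule, 0 to 6 in thin limb, 7 to 103 in thick ascending limb, 0 to 7 in distal tubule with collecting duct, 0 to 13 in intercalated cells, 2 to 16 in endothelium, 0 to 92 in stromal and mural nuclei, 0 to 4 in immune nuclei, 1 to 6 in podocytes and 0 to 67 between compartments. The cause of these shifts was not tested, beyond the fewer samples when a library is left out.

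The labels give the replicate numbers no meaning beyond naming the samples. Between genotypes at the same time point, deviations of equal numbers correlated by 0.521 at ZT4 and 0.483 at ZT16. They correlated by 0.228 between the cKOt groups and by -0.287 to 0.0251 between the remaining groups. A pairing within each time point was not modelled, and a replicate block fits 1 replicate effect over both times. A replicate block gave 1 call (0 higher, 1 lower) over all nuclei, 25 (12 and 13) in the cKOt libraries alone, 0 (0 and 0) for the genotype difference, 3 in distal tubule with collecting duct, 34 in endothelium, 2 in stromal and mural nuclei, 9 in podocytes and 91 in thick ascending limb, within 1.5 times of 65.

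For single genes, 1672 of 1765 values under other settings kept direction and side of the limit, 31 were no longer called, 48 became called and 14 changed sign with neither value called. With 1 library left out these were 1360, 112, 13 and 67 of 1552.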
